A study of Mus musculus with 4 samples.

Results

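Visceral mesenchyme was examined in the caudal embryo at E8.5 in the mouse, as the cells that carried transcripts of *Foxf1* together with *Nkx2-3* or *Hlx*. A cell was a member if it held at least 2 UMIs of *Foxf1*, at least 2 UMIs of *Nkx2-3* and *Hlx* added together, at most 1 UMI of *Tbx4* and no UMI of *Cdh5*. A UMI (unique molecular identifier) marks 1 captured transcript, and cells under 3000 genes, under 7500 UMIs or over 7% mitochondrial UMIs were left out. This gave 986 members of 20198 filtered cells. *Foxf1* is a forkhead factor that splanchnic mesoderm switches on in response to hedgehog ligands from the gut endoderm. *Nkx2-3* is a homeobox factor of gut and spleen mesenchyme, and *Hlx* is a homeobox factor that gut and liver mesenchyme needs for growth. Such mesenchyme goes on to form the smooth muscle, connective tissue and outer lining of the gut.

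The cells came from 4 libraries, 2 WT and 2 *Grhl3*-null, prepared from offspring of *Grhl3*+/- intercrosses on a C57BL/6 background. The null embryos were *Grhl3*-/- in all tissues. Cells of 5 WT embryos and of 3 null embryos had been pooled by genotype and each pool run in 2 droplet reactions, so a p-value sets 1 pool against another without any measure of how embryos vary. The filtered libraries held 5459 and 5116 WT cells with medians of 33391 and 34572.5 UMIs. The null libraries held 4842 and 4781 cells with medians of 38070 and 35514 UMIs. There were 241 and 245 WT members, 239 and 261 null members, and their summed depth lay between 10582175 and 11273037 UMIs per library. Between 5 and 7 filtered cell barcodes were shared by any 2 libraries. By *Xist* and 4 Y-linked genes, the WT members were 79 and 83 male and 134 and 133 female cells. The null members were 127 and 135 male and 85 and 102 female cells, so the sexes were unequally mixed in the 2 pools. With 3 null embryos of both sexes, at least 1 sex came from a single null embryo. Levels below are CPM, the UMIs of a gene in every 1000000 UMIs summed over a class in a library, and values in a series are given for the WT libraries first.

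The genes of the rule are described without a test, since they chose the cells. *Foxf1* (chr8:121084386-121088144, plus strand, mm10) stood at 270 and 299 CPM in the WT members and at 294 and 318 CPM in the null members. In the 1568 cells of a neural reference (at least 3 UMIs of *Sox2*, none of *T* or *Epcam*) it stood between 8.60 and 12.3 CPM. *Nkx2-3* (chr19:43612325-43615892, plus strand) stood at 59.7 and 73.5 CPM in WT members and at 33.8 and 38.2 CPM in null members. *Hlx* (chr1:184727140-184732619, minus strand) stood at 70.7, 71.0, 74.0 and 79.4 CPM. The libraries of the 2 genotypes thus did not overlap for either homeobox gene, *Nkx2-3* being lower and *Hlx* higher in the null members. The members held between 62.6% and 78.2% of a library's *Nkx2-3* UMIs and between 66.8% and 75.2% of its *Hlx* UMIs. They held between 21.3% and 25.6% of its *Foxf1* UMIs, most of which lay in cells without either homeobox gene.

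At the edge of the rule, 271 members held exactly 2 UMIs of *Nkx2-3* and *Hlx* together, and 464 otherwise matching cells held exactly 1. Summed over libraries, the cells just inside had 53.7 CPM of *Col3a1* and 65.3 CPM of *Acta2*, and those just outside had 47.9 and 50.4 CPM. All members together had 87.5 and 165 CPM. *Foxf1* stood at 2 UMIs in 38 members, and 33 further cells with 1 UMI fell outside. Another 69 cells fell outside by a UMI of *Cdh5*, with 15.8 CPM of *Col3a1*, 33.6 CPM of *Acta2* and a median of 55858 UMIs.

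The mesenchymal markers were compared with a cell type that should lack them. *Col3a1*, a fibrillar collagen of soft connective tissue, had a UMI in 62.2% and 50.6% of the WT members and in 66.1% and 70.9% of the null members. In the neural reference the share was between 2.70% and 4.04%. *Acta2*, smooth muscle actin, had a UMI in 66.4% and 73.1% of the WT and in 56.9% and 57.9% of the null members, against 7.68% to 11.8% of the neural cells. The shares in members lay far above those in neural cells for both genes, at medians of 36441.5 and 33694 UMIs per cell. After thinning each cell to 7500 UMIs, *Col3a1* was found in 29.4% to 39.1% of members and 0.612% to 2.03% of neural cells. The thinned share for *Acta2* was 32.2% to 42.9% of members and 1.41% to 3.83% of neural cells. Both markers of the label were thus present in the members. They were not confined to them, since *Foxf1* cells without *Nkx2-3* and *Hlx* had a UMI of *Acta2* in 47.4% to 50.1%. For *Col3a1* the share of those cells was 16.1% to 29.4%.

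Members of another kind lay within the rule. *Etv2* and *Tal1*, which encode factors that start the blood and endothelial programme, reached 3 UMIs added together in 13.5% of the members. The share was 4.47% of the *Foxf1* cells without *Nkx2-3* and *Hlx* and 0.957% of the neural reference. *Kdr*, the main receptor for VEGF, had a UMI in 51.6% of the members, 31.4% of those *Foxf1* cells and 5.29% of neural cells. These cells lacked *Cdh5* by the rule. Some counts below were also made without the cells that held a UMI of *Etv2* or *Tal1*. They were those against *Foxf1* cells without *Nkx2-3* and *Hlx*, between members with only *Nkx2-3* or only *Hlx*, and between genotypes. The test of genotype differences between members and those *Foxf1* cells was also repeated in this way. Since a single UMI was enough to leave a cell out, 174 of 241 and 182 of 245 WT members were kept. In null, 167 of 239 and 171 of 261 members were kept.

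Members made up 4.41% and 4.79% of the WT libraries (95% exact Clopper-Pearson intervals 3.89 to 4.99 and 4.22 to 5.41) and 4.94% and 5.46% of the null libraries (4.34 to 5.58 and 4.83 to 6.14). The means were 4.60% ± 0.265 (SD, n = 2) in WT and 5.20% ± 0.370 (SD, n = 2) in null. The libraries of the genotypes did not overlap, but the intervals did. With at least 3 UMIs of *Nkx2-3* and *Hlx* asked for, the libraries overlapped too, at 3.32% and 3.60% in WT against 3.41% and 3.87% in null, and the log2 ratio of the means went from 0.18 to 0.07. An exact permutation test of 2 against 2 libraries cannot give a two-sided p below 0.33. The order was turned when cells were first thinned to 7500 UMIs, at 1.05% in WT against 0.717% in null, and in male cells alone, at 6.58% against 5.72%. Intervals cover counting error only.

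The makeup of the members differed more than their number. *Hlx* alone was found in 87 and 82 WT members against 150 and 170 null members. Both genes were found in 137 and 144 WT members against 82 and 86 null members, and *Nkx2-3* alone in 17 and 19 against 7 and 5. A UMI of *Nkx2-3* was thus held by 63.9% and 66.5% of the WT members (57.5 to 70.0 and 60.2 to 72.4) and by 37.2% and 34.9% of the null members. The order was the same within each sex. Among male cells the share was 58.2% and 57.8% in WT against 30.7% and 28.9% in null, and among female cells it was 69.4% and 70.7% against 45.9% and 43.1%. These shares rest on the genes of the rule and are given as a description.

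**Figure D1:**
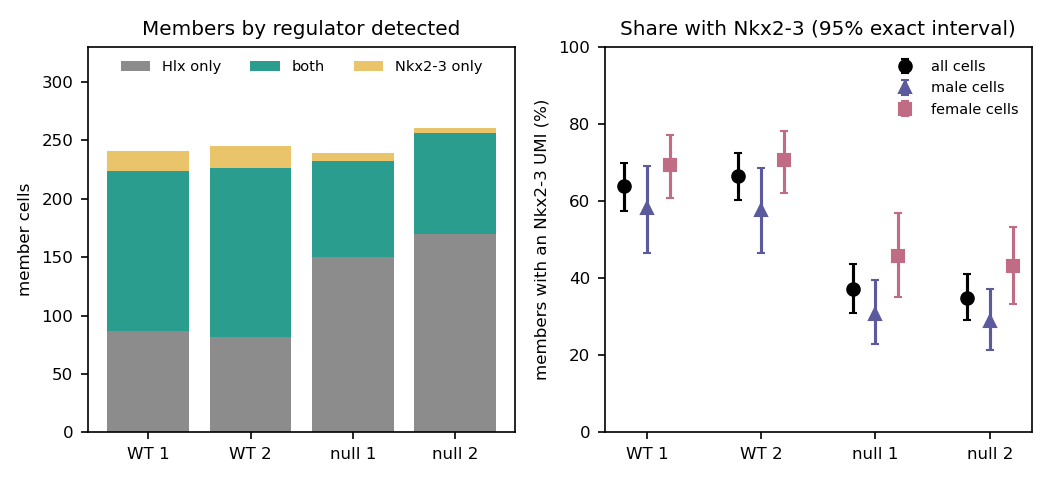
Left, the number of members per library (y axis, cells) that held UMIs of *Hlx* only, of both genes, or of *Nkx2-3* only; right, the percentage of members with a UMI of *Nkx2-3* per library for all, male and female cells, with 95% exact intervals. The WT libraries lie at 63.9% and 66.5% and the null libraries at 37.2% and 34.9%, and the same order is seen in male and in female cells.

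To see what set the members apart from the mesoderm around them, they were compared with 3762 cells that held at least 2 UMIs of *Foxf1* and none of *Nkx2-3* or *Hlx*, with the same limits on *Tbx4* and *Cdh5*. These are called *Foxf1* mesoderm here, and their median depth of 37295.5 UMIs was close to that of the members. UMIs were summed per class and library and compared with edgeR's quasi-likelihood test, with the library as a block and the 5 rule genes left out. A gene counted as called where its adjusted p (Benjamini-Hochberg) was below 0.05 and it differed by 1 or more on the log2 scale. Of 13763 genes tested, 803 were called higher (5.83%) and 452 lower (3.28%) in the members, and the median log2 fold change of all genes was -0.01. Genes of hedgehog reception, interstitial matrix, smooth muscle, the coelomic lining and endothelium were among those higher, whereas presomitic and Wnt feedback genes were among those lower.

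Hedgehog reception came first, being the input that visceral mesoderm receives from the gut. *Ptch1* (chr13:63508328-63573598, minus strand), the hedgehog receptor and a direct target of the pathway, stood at 384, 409, 414 and 466 CPM in the members. In *Foxf1* mesoderm it stood at 128, 123, 135 and 132 CPM. The 2 classes did not overlap, and the log2 fold change was 1.68 ± 0.036 (SE; edgeR quasi-likelihood test, Benjamini-Hochberg adjusted p = 1.43e-11). *Hhip*, a hedgehog-binding decoy that is also a target, was low in absolute terms at 12.7, 10.6, 19.8 and 21.6 CPM against 1.21, 1.15, 3.2 and 2.42 CPM, with a log2 fold change of 3.05. *Gli1*, the transcription factor induced by the signal, was higher by 1.01 on the log2 scale. *Gli2* at 0.51 and *Gli3* at -0.32, the factors that are present before the signal arrives, were not called. In all, 3 of the 11 tested genes of the list were called higher and none lower, with a median of 0.51.

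Of 19 tested regulators of visceral mesoderm, 8 were called higher and 2 lower. *Foxf2*, the close relative of *Foxf1*, stood at 39.7, 46.6, 36.6 and 37.3 CPM in the members against 8.22, 7.29, 8.46 and 8.31 CPM, a log2 fold change of 2.31 ± 0.083 (SE; edgeR quasi-likelihood test, Benjamini-Hochberg adjusted p = 8.51e-10). The member libraries lay far above those of *Foxf1* mesoderm. *Tbx20* (2.61), *Gata5* (1.65), *Barx1* (1.28), *Gata6* (1.21), *Tcf21* (1.14) and *Hand1* (1.13) were also called higher, and *Barx1* is known from stomach mesenchyme. The zinc finger gene *Osr1*, which is known from intermediate and lateral mesoderm, was lower at 32.5, 33.2, 41.8 and 43.3 CPM against 106, 107, 94.4 and 91.8 CPM. *Tbx2* was also called lower, at under 2 CPM in every library of both classes. *Hand2* at -0.29 and *Isl1* at 0.34 were not called.

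Interstitial matrix genes were higher, 10 of 18 tested being called, none lower and a median log2 fold change of 1.77. *Col3a1* (chr1:45311538-45349706, plus strand) stood at 78.2, 88.5, 90.7 and 92.3 CPM in the members. In *Foxf1* mesoderm it stood at 8.42 and 8.55 CPM in WT and at 17.1 and 17.3 CPM in null. The log2 fold change was 2.81 ± 0.13 (SE; edgeR quasi-likelihood test, Benjamini-Hochberg adjusted p = 8.82e-09). Summed over all members the genotypes differed little, whereas the null *Foxf1* mesoderm stood well above the WT *Foxf1* mesoderm. *Col1a2* behaved alike with 110, 124, 119 and 127 CPM against 22.4, 21.3, 37.1 and 37.3 CPM. In members without *Nkx2-3*, however, *Col3a1* stood at 41.4 and 26.6 CPM in WT and at 68.4 and 67.7 CPM in null. With at least 4 UMIs of *Nkx2-3* it stood at 113 and 173 against 117 and 160 CPM. The small proteoglycans *Lum* (4.04) and *Dcn* (3.32) and the matricellular genes *Tnc* (3.42) and *Postn* (2.43) had larger log2 fold changes at lower levels. *Fn1*, the fibronectin that most mesoderm makes, was not called, at 397, 382, 395 and 363 CPM against 373, 372, 361 and 363 CPM. Basement membrane genes moved less, with 2 of 10 called higher (*Nid1* at 2.91 and *Lama4* at 2.86).

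Smooth muscle and contractile genes followed, with 5 of 14 called higher and none lower. *Acta2* (chr19:34241090-34255590, minus strand) stood at 182, 204, 142 and 135 CPM in the members against 40.5, 30.9, 27.1 and 36.8 CPM, a log2 fold change of 2.29 ± 0.096 (SE; edgeR quasi-likelihood test, Benjamini-Hochberg adjusted p = 2.95e-09). All member libraries lay above all libraries of *Foxf1* mesoderm. *Tagln*, an actin-binding protein of smooth muscle, was higher by 1.86, *Myl9*, its regulatory myosin light chain, by 2.06, *Cnn2*, a calponin, by 1.70, and *Actg2*, the enteric smooth muscle actin, by 2.68 on the log2 scale. *Actg2* reached at most 6.03 CPM in the members. Smooth muscle promoters are known for the CArG box, the site of serum response factor, which reads CC, then 6 bases that are each A or T, then GG. RefSeq promoter windows of 300 bases (GRCm38.p6, 250 of them before the start) were held for *Acta2*, *Cnn2* and *Myl9*, and those of *Cnn2* and *Myl9* contained the box. It was found in 1.63% of all 32851 windows, a single strand being enough since the pattern reads the same on both. The stretches of 80 bases around it are shown because these 2 genes were called together, with the box in capitals and both on the plus strand.
Myl9, chr2:156775268-156775347: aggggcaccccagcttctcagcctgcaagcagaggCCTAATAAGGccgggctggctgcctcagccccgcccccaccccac
Cnn2, chr10:79988509-79988588: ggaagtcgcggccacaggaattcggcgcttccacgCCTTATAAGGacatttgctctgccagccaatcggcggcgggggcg
The box begins 161 bases before the start in *Myl9* and 56 bases before it in *Cnn2*. A match is a description of the letters and no evidence of binding.

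Of 8 tested genes of the coelomic lining, the epithelium that covers the gut tube and body cavity, 6 were called higher and 1 lower. *Krt18*, a simple epithelial keratin, stood at 493, 492, 452 and 533 CPM in the members against 145, 133, 130 and 136 CPM, and its partner *Krt8* had a log2 fold change of 1.90 ± 0.034 (SE; edgeR quasi-likelihood test, Benjamini-Hochberg adjusted p = 3.42e-12). *Upk3b*, a mesothelial marker, was higher by 3.30 on the log2 scale at 4.62 to 5.88 CPM, and *Podxl*, *Upk1b* and *Krt19* were called higher too. *Lhx2* was lower by 2.10 on the log2 scale. The summed level of the list was 1172, 1144, 1104 and 1236 CPM in the members against 351.7, 317.7, 332.5 and 367.5 CPM, led by keratins, and *Msln*, a defining marker of mature mesothelium, was at 0.

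Endothelial genes were higher as well, with 8 of 10 tested called and a median of 2.15. *Kdr* stood at 103, 95.1, 116 and 120 CPM in the members against 22.1, 25.9, 45.5 and 49.9 CPM, and *Etv2* stood at 83.9, 49.7, 68.4 and 73.5 CPM against 10.1, 14, 21.8 and 21.5 CPM. The whole list summed to 331, 242, 293 and 299 CPM in the members against 73.0, 83.7, 115 and 118 CPM, with *Kdr* the most abundant and no gene at 0. *Hhex*, a homeobox gene of early endothelium and endoderm, was called at a log2 fold change of 2.66 and turned to -0.35 without the cells that held *Etv2* or *Tal1*. Without those cells 1210 genes were called, of which 1004 were among the 1255 calls made with them. Erythroid genes were uneven between libraries, at summed levels of 534, 26.6, 249 and 431 CPM in members and 241, 273, 31.5 and 161 CPM in *Foxf1* mesoderm, and none of 10 was called. At least 3 UMIs of *Hba-x*, the embryonic globin, were held by 25 members (2.54%), against 1.21% of neural cells.

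Signals were split by pathway. *Vegfa* (1.42), *Angpt2* and *Igf1* were called among 13 vascular signals, and *Vegfa* stood at 44.5, 43.5, 46.3 and 49.6 CPM against 15.8, 15.7, 19.97 and 17.2 CPM. Of 20 BMP genes, the ligands *Bmp5* (2.27) and *Bmp2* (1.04) were higher, whereas the targets *Msx2* (-2.54) and *Msx1* (-1.05) and the antagonist *Grem1* (-2.13) were lower. Of 19 Wnt genes, 6 were lower, namely the targets *Sp5* (-1.74), *Axin2* (-1.45) and *Nkd1* (-1.55), the secreted *Rspo3* (-1.35) and *Dkk1* (-1.32), and *Wnt4* (-1.25). *Wnt2b*, *Rspo1* and *Dkk2* were higher, *Wnt2b* from under 1 CPM in every library. Retinoic acid genes had 4 of 12 lower, including *Cyp26a1* (-1.77), the degrading enzyme, and *Crabp1* (-1.10), a binding protein, whereas the receptor *Rarb* was higher at 1.15. Of 11 FGF genes, *Fgf8* and *Fgf9* were lower.

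Genes of paraxial and intermediate mesoderm were among those lower in the members. Of 10 tested paraxial genes 8 were called lower, with a median of -1.83. *Tbx6*, the presomitic T-box factor, stood at 5.57, 3.92, 2.46 and 2.13 CPM against 21.9, 23.0, 17.3 and 15.3 CPM. Intermediate mesoderm genes had 4 of 7 lower and secreted visceral endoderm genes 7 of 9 lower. The allantois and caudal list had 4 of 12 higher (*Twist2*, *Rspo1*, *Tcf21* and *Hand1*) and 1 lower (*Hoxd11*), with a median of 0.62. The laterality genes *Nodal* (-3.29), *Lefty1* (-3.83) and *Lefty2* (-3.48) were lower, and *Lefty2* stood at 23.1 and 28.0 CPM in WT *Foxf1* mesoderm against 1.98 and 2.15 CPM in WT members. In both null classes *Lefty2* was under 1 CPM. Among 35 *Hox* genes 1 was called higher (*Hoxc11*) and 7 lower, and *Hoxb1* stood at 21.2, 18.1, 31.1 and 32.8 CPM against 76.9, 82.5, 65.0 and 66.7 CPM. Imprinted growth genes had 3 of 11 higher (*Dlk1* at 1.78, *Peg3* and *Plagl1*). Of 13 gut endoderm genes, *Sox17* (1.23) was higher and *Foxa2*, *Trh* and *Spink1* were lower. Cardiac genes had *Actc1* higher (2.04) and *Tbx5* lower (-1.11) of 8, and the limb and body wall list had 2 higher (*Twist2* at 2.07 and *Tbx18*) and 4 lower of 10. None of 15 proliferation genes was called, and dissociation genes had 3 of 12 higher, led by *Jun* at 1.11.

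Among genes with a mean of at least 10 CPM, several of those with the largest changes lay outside these lists, beside *Nid1*, *Col3a1*, *Msx2* and *Tbx6*. *Hsd11b2* (chr8:105518755-105523988, plus strand), the enzyme that inactivates glucocorticoids, stood at 153, 165, 149 and 162 CPM against 13.2, 11.7, 14.2 and 14.3 CPM. Its log2 fold change was 3.56 ± 0.057 (SE; edgeR quasi-likelihood test, Benjamini-Hochberg adjusted p = 1.82e-12), and the 4 member libraries lay close together. *Gpr50*, an orphan receptor related to the melatonin receptors, was higher by 4.64 at 17.2 to 22.7 CPM. *Tdo2*, which degrades tryptophan (3.25), *Ntng1*, a netrin-like adhesion protein (3.12), *Saa1*, a serum amyloid (3.09), *Tmem100* (2.97) and *Popdc2* (2.66) followed. Among those lower were *Notum*, which inactivates Wnt proteins (-2.72), and *Cited1*, a transcriptional coregulator (-2.58). *Cited1* stood at 81.6, 83.5, 79.5 and 61.6 CPM in the members against 490, 504, 408 and 427 CPM. *Sct* (-2.38), the antisense RNA *Evx1os* (-2.32), which may share reads with its neighbour, *Dll3* (-2.20), *Rftn1* (-2.10), *Fgf17* (-2.01) and *Rnf213* were also lower.

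**Figure D2:**
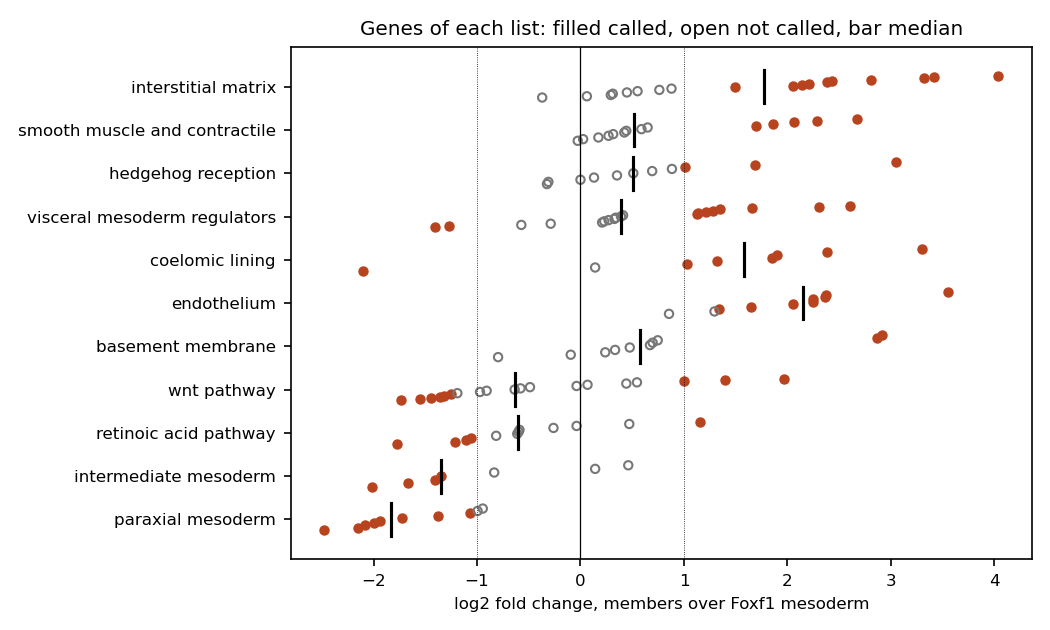
Log2 fold change of members over *Foxf1* mesoderm (x axis) for each tested gene of 11 gene lists (y axis); filled points were called, open points were not, the bar is the list's median and dotted lines mark a change of 1 in either direction. Points of the matrix and endothelial lists lie mostly to the right, with medians of 1.77 and 2.15, and those of the paraxial list to the left, with a median of -1.83.

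Members were next set beside 401 cells with at least 2 UMIs of *Foxf1* and at least 3 of *Tbx4*, the T-box gene of allantois and hindlimb, to see how visceral and caudal *Foxf1* mesenchyme differ. There were 79 and 54 such *Tbx4* cells in WT and 153 and 115 in null, with a median of 41542 UMIs. Of 12173 genes tested, 661 were called higher (5.43%) and 302 lower (2.48%) in the visceral members. Hedgehog reception was higher again, in 5 of 11 genes with none lower. *Ptch1* stood at 86.6, 122, 88.9 and 93.9 CPM in *Tbx4* cells, a log2 fold change of 2.13 ± 0.069 (SE; edgeR quasi-likelihood test, Benjamini-Hochberg adjusted p = 1.36e-10), and *Hhip* was under 1 CPM there. *Cdon* (1.59), a hedgehog co-receptor, and *Gli1* (1.41) were also called.

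*Col3a1* stood at 5.69, 8.90, 9.63 and 8.57 CPM in *Tbx4* cells, and 6 of 17 matrix genes were higher in the members, with *Has2*, a hyaluronan synthase, lower by 1.39 on the log2 scale. *Acta2* was higher by 1.48 against 61.3, 33.7, 64.8 and 66.7 CPM, a gap smaller than that to *Foxf1* mesoderm, though the difference of the gaps was not tested. Smooth muscle genes had 4 of 14 higher and 1 lower (*Des*). Regulators were divided, with 3 of 19 higher (*Meis1* at 1.54, *Foxf2* at 1.13 and *Zfpm2*) and 7 lower. *Tbx2* stood at 17.1, 15.9, 19.6 and 20.6 CPM in *Tbx4* cells and under 2 CPM in members, and *Gata4* stood at 15.3, 15.3, 30.1 and 29.1 CPM against 2.64, 2.06, 5.58 and 4.88 CPM. *Gata5* (-3.08), *Tbx3* (-1.98), *Tbx20* (-1.78), *Isl1* (-1.77) and *Tlx1* were the others called lower. *Tbx20* was thus highest in *Tbx4* cells, between in visceral members and lowest in *Foxf1* mesoderm.

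The caudal list had 1 of 12 genes higher and 7 lower. *Hoxd13* (-4.06), *Hoxa13* (-3.45) and *Hoxa11* (-3.16), the *Hox* genes of the body's end, were lower in members, and *Hoxb1* was higher. *Phlda2*, an imprinted growth gene of the placenta, stood at 331, 234, 260 and 253 CPM in members and was lower by 2.88 on the log2 scale, beside *Ngfr* (-4.18), *Pcsk1n* (-3.53), *Wnt2* (-3.44), *Bves* (-3.30), *Pgf* (-2.81) and *Twist1* (-2.69). *Saa1* (4.54), *Ntng1* (4.31), *Gpr50* (4.07), *Tdo2* (3.99), *Tmem100* (3.52), *Slc38a5* (3.52) and the apelin receptor *Aplnr* were higher. All 9 tested erythroid genes were called higher in members, with *Hba-x* at 260, 8.87, 127 and 237 CPM against 8.58 to 11.6 CPM, and DESeq2 called 4 of them. WT library 2 was as low as the *Tbx4* cells, and the part of free red cell RNA in this was not tested.

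A last class of 304 cells was set by *Prrx1*, a gene of body wall and limb mesoderm, at 2 UMIs or more with no *Foxf1*. Its cells did not look like body wall throughout, since 11 of 13 gut endoderm genes were higher in it than in the members. *Epcam* stood there at 194, 218, 56.5 and 60.1 CPM against 5.94 to 12.0 CPM in members, and *Shh* (-4.73), *Foxa2* (-4.83) and *T* (-3.14) were also lower in members. Of 12145 genes tested 514 were called higher (4.23%) and 590 lower (4.86%) in members. Against these *Prrx1* cells the members were higher in *Gpr50* (6.27), *Hand1* (4.87), *Saa1* (4.62), *Foxf2* (4.52), *Acta2* (3.63) and *Twist2* (3.27). *Foxf2* stood between 0.811 and 2.53 CPM in *Prrx1* cells and at 36.6 to 46.6 CPM in members.

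The members themselves were not alike. To see how they differ by homeobox gene, the 48 members with *Nkx2-3* and no *Hlx* were compared with the 489 members with *Hlx* and no *Nkx2-3*. The *Nkx2-3*-only cells were shallower, at a median of 25856.5 against 38557 UMIs, and 8 male and 35 female cells stood among them against 252 and 184. The null libraries gave 7 and 5 such cells, so their values rest on few cells. Of 10245 genes tested, 275 were called higher (2.68%) and 141 lower (1.38%) in *Nkx2-3*-only cells, and the median of all genes was -0.03. When restricted to cells of 20000 to 60000 UMIs, 251 genes were called in place of 416, without WT library 2 there were 235, without cells that held *Etv2* or *Tal1* there were 289, and DESeq2 called 274. Of the genes named below, *Gata4*, *Epha5*, *Tbx3*, *Hoxc10*, *Hoxd11*, *Hoxa3*, *Hoxb3*, *Aldh1a2*, *Cyp26a1*, *Axin2*, *Sfrp2*, *Igf2* and *Etv2* were not called by DESeq2.

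Contractile and matrix genes were higher where *Nkx2-3* was found. *Acta2* stood at 586, 401, 598 and 310 CPM in *Nkx2-3*-only cells and at 44.5, 32.9, 39.3 and 32.0 CPM in *Hlx*-only cells. The classes did not overlap, and the log2 fold change was 3.65 ± 0.12 (SE; edgeR quasi-likelihood test, Benjamini-Hochberg adjusted p = 8.51e-28). *Hlx*-only cells thus held the gene at levels like the 27.1 to 40.5 CPM of *Foxf1* mesoderm, a comparison that was not tested. *Tagln* stood at 423, 134, 190 and 25.8 CPM against 28.1, 21.3, 20.1 and 19.9 CPM, with null library 2 close to the other class. In all 6 of 11 contractile genes were higher and none lower, with *Myl9* at 2.64, *Cnn2* at 1.49, *Tpm2* at 1.21 and *Csrp1* at 1.07. Matrix genes had 10 of 16 higher and none lower, and *Col3a1* stood at 189, 128, 217 and 161 CPM against 41.4, 26.6, 68.4 and 67.7 CPM. The coelomic list had 4 of 5 higher, with *Krt18* at 778, 787, 775 and 981 CPM against 327, 319, 310 and 400 CPM.

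Regulators went both ways, 3 of 16 higher and 4 lower. *Hand1* was higher by 1.63 and *Tbx20* by 2.38 on the log2 scale. *Hand1* stood at 294, 229, 310 and 407 CPM against 106, 104, 82.6 and 79.0 CPM. *Hand2*, the relative of *Hand1*, went the other way at 28.0, 29.6, 31.0 and 19.4 CPM against 90.2, 96.2, 63.7 and 60.2 CPM, as did *Osr1* (-1.69) and *Tbx3* (-1.42). *Gata4* had no UMI in any *Nkx2-3*-only sum. Hedgehog reception did not meet the limits in any of 11 genes, and *Ptch1* stood at 346, 417, 571 and 523 CPM against 308, 372, 378 and 408 CPM.

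Endothelial genes marked the *Hlx* side, 5 of 7 being lower and 1 higher in *Nkx2-3*-only cells. *Kdr* stood at 16.3, 33.6, 35.4 and 38.7 CPM in those cells against 186, 155, 151 and 144 CPM, a log2 fold change of -2.50. *Hhex* and *Tal1* had no UMI in the 48 cells against 832 and 510 UMIs (37.5 and 23.0 CPM) in *Hlx*-only cells. They were thus at least 16.4-fold and at least 10.1-fold lower, taking 3 counts over the group as the floor. *Etv2* and *Tal1* added together reached 3 UMIs in 18.6% of the *Hlx*-only cells. *Lmo2*, a partner of *Tal1*, was lower by 2.35 on the log2 scale and stood at 0.18 without cells that held *Etv2* or *Tal1*. *Etv2* itself was at 2.33, 7.91 and 22.1 CPM in 3 of the *Nkx2-3*-only sums and at 219 CPM in null library 2, which held 5 cells.

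*Hox* genes divided by position. The genes called higher in *Nkx2-3*-only cells were *Hoxa10* (1.17), *Hoxa11* (3.34), *Hoxc10* (2.06), *Hoxc11* (3.24), *Hoxd10* (2.03) and *Hoxd11* (1.74). Those called lower included *Hoxa3*, *Hoxa5*, *Hoxb2*, *Hoxb3*, *Hoxb9*, *Hoxc4* and *Hoxd1*, and 6 of 31 were higher and 8 lower. *Hoxb9* stood at 53.7, 83.0, 22.1 and 83.9 CPM against 214, 232, 183 and 163 CPM. *Hoxc10* stood at 103, 227, 168 and 6.45 CPM against 37.2, 67.1, 10.9 and 7.61 CPM, so that null library 2 lay no higher than the *Hlx*-only cells. Retinoic acid genes were lower in 3 of 10 (*Crabp1* at -2.29, *Aldh1a2* at -1.71 and *Cyp26a1*), and Wnt genes in 3 of 16 (*Lef1*, *Axin2* and *Sfrp2*). Imprinted genes were higher in 3 of 11 (*Cdkn1c* at 1.23, *Igf2* at 1.03 and *Dlk1* at 1.01).

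Outside the lists, the genes named for large positive changes were *Mab21l2* (4.38), *Rhox5* (4.21), *Creb3l1*, a transcription factor of collagen-secreting cells (3.97), *Cthrc1*, a collagen triple helix protein (3.62), *Adamts18* (3.16), *Pdlim1* (3.12), *Stx3* (3.10) and *Matn4*, a matrilin (3.03). Those lower included *Epha5* (-2.93), *Prrx1* (-2.29) and *Cdx1* (-2.27), and the antisense gene *Hoxaas3*, whose reads may overlap its neighbours.

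Counted by dose of *Nkx2-3* UMIs per cell, the means of the same genes were graded. *Acta2* stood at 37.2 ± 5.88 CPM (mean ± SD, n = 4 libraries) in members with 0 UMIs, 142 ± 36.3 with 1, 242 ± 67.3 with 2 or 3, and 426 ± 62.0 with at least 4. *Krt18* went in the same order from 339 to 539, 648 and 742 CPM. *Hand1* went from 93.1 to 199, 238 and 322 CPM and *Col3a1* from 51.0 to 94.9, 112 and 141 CPM. *Kdr* went the other way, from 159 to 86.1, 68.2 and 40.1 CPM, as did *Crabp1* from 247 to 155, 127 and 80.2 CPM. Single libraries departed from these orders. For example, *Kdr* stood at 145 CPM in null library 2 with 2 or 3 UMIs. In null library 1 *Col3a1* fell from 146 CPM with 2 or 3 UMIs to 117 CPM with at least 4. *Ptch1* differed little above 0 UMIs, at 367, 472, 473 and 486 CPM. These bins use a gene of the rule and a deeper cell more easily enters a higher bin, so they are given without a test.

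**Figure D3:**
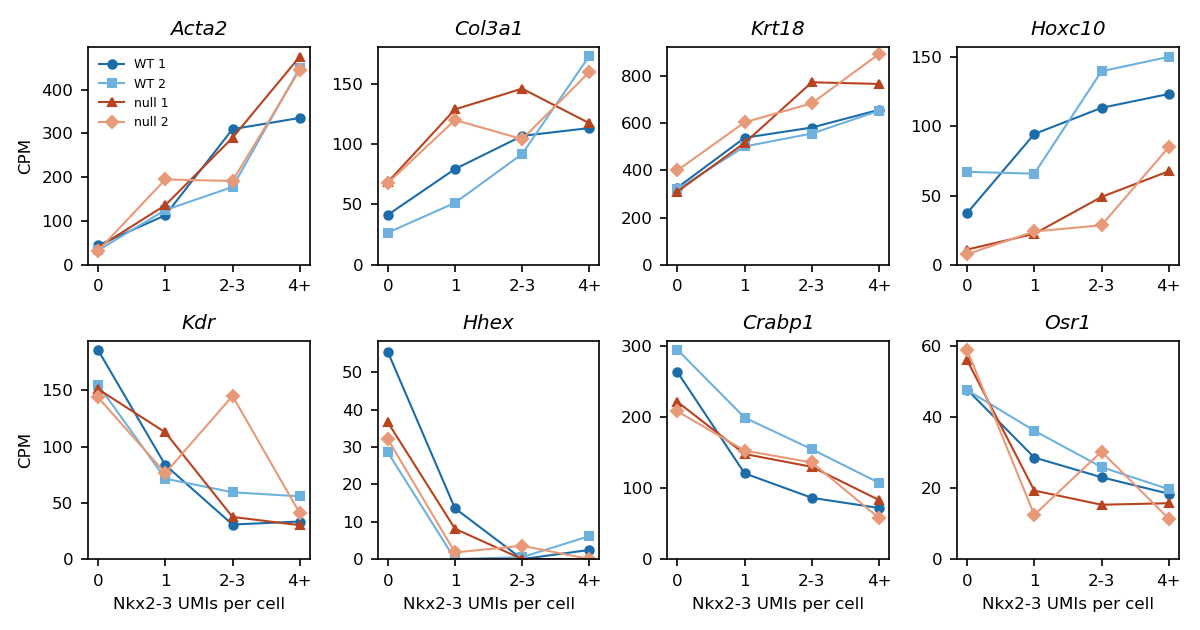
CPM (y axis) of 8 genes in members grouped by UMIs of *Nkx2-3* per cell (x axis, 0, 1, 2 to 3, and 4 or more), with a line for each of the 4 libraries. In every library *Acta2*, *Col3a1*, *Krt18* and *Hoxc10* end higher at the right than they start at the left and *Kdr*, *Hhex*, *Crabp1* and *Osr1* end lower, and for *Hoxc10* the 2 null libraries run below the 2 WT libraries in every group.

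The genotypes were compared within the members to see what visceral mesenchyme lacks or gains in *Grhl3*-null embryos. *Grhl3* (chr4:135541888-135573630, minus strand), the epithelial factor removed in the null, had 27 and 13 UMIs in the WT members (2.55 and 1.21 CPM) and none in the null members, where 3 counts would be 0.284 and 0.266 CPM. A gene was called here with an adjusted p under 0.05, whatever its fold. Of 12023 genes tested, 265 were called higher (2.2%) and 222 lower (1.85%) in null members. At an unadjusted p under 0.05 there were 2098 genes. DESeq2 called 201, of which 90 were lower (0.749%), and the fit with the replicate number as a block called 743.

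*Hox* genes of the trunk end were low in null members. *Hoxc10* (chr15:102966796-102971893, plus strand) stood at 82.5 and 107 CPM in WT members and 24.9 and 24.6 CPM in null members, a log2 fold change of -1.93 ± 0.11 (SE; edgeR quasi-likelihood test, Benjamini-Hochberg adjusted p = 1.5e-06). *Hoxa10* stood at 32.5 and 35.2 CPM against 14.9 and 11.7 CPM, and *Hoxd10* at 11 and 13.4 CPM against 1.89 and 2.93 CPM. *Hoxd11* (-3.12), *Hoxa11* (-2.42) and *Hoxc11* (-2.25) were lower at under 11 CPM in every library, and *Hoxc9* (-0.70), *Hoxd9* (-0.70), *Hoxa9* (-0.55) and *Hoxc6* (-0.45) moved less. In the opposite direction *Hoxb1* (0.70), *Hoxa5* (0.54) and *Hoxb2* (0.24) were higher. Each of these 3 had a called difference between the sexes, at 1.70, 0.94 and 0.61 in male cells against -0.75, 0.08 and -0.28 in female cells, where none was called. *Hoxa9* was at -1.42 in male and 0.01 in female cells, *Hoxc6* at -0.99 and 0.08 and *Hoxd9* at -1.20 and -0.22, each with a called difference between the sexes and none called in female cells. Thus 10 of 34 *Hox* genes were called lower and 4 higher. DESeq2 called 7 of these lower and 2 higher, and not *Hoxd11*, *Hoxc11*, *Hoxa9* or *Hoxb2*. The caudal list, which shares *Hox* genes, had 9 of 11 lower and none higher, with DESeq2 calling 7 of the 9. *Cdx2* was lower by 0.47 on the log2 scale, with a male minus female difference of -1.51 that was called.

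**Figure D4:**
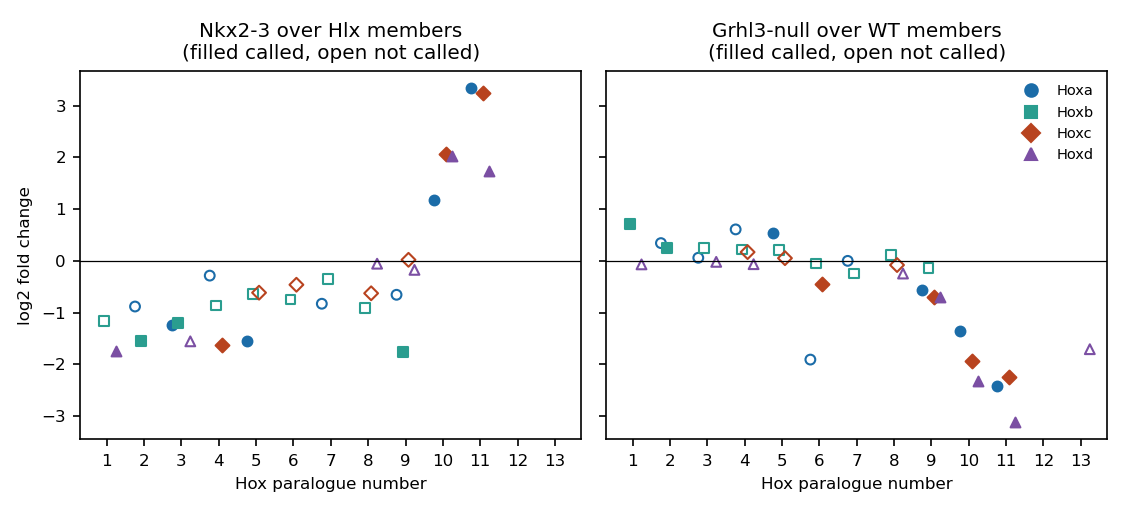
Log2 fold change (y axis) of tested *Hox* genes by paralogue number (x axis), left for *Nkx2-3*-only over *Hlx*-only members and right for null over WT members; filled points were called. On the left the genes of groups 10 and 11 that were called lie above 0 and the called genes of lower groups lie below it; on the right the called genes of groups 9 to 11 lie below 0 and *Hoxb1*, *Hoxb2* and *Hoxa5* lie above it.

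Contractile genes were lower in null members in 6 of 13 tested and higher in none. *Acta2* stood at 182 and 204 against 142 and 135 CPM (-0.48) and *Tagln* at 57.7 and 61.3 against 36.6 and 39.5 CPM (-0.64), and *Myl9* (-0.63), *Des* (-0.46), *Csrp2* (-0.33) and *Tpm1* (-0.18) were the others, though DESeq2 called neither *Des* nor *Tpm1*. The sexes differed, the test of male minus female changes being called for *Tagln* (1.72), *Myl9* (1.47), *Tpm1* (0.27), *Csrp2* (-0.31) and *Acta2* (-0.44). *Tagln* was at 0.42 in male cells, not called, and at -1.30 in female cells, and *Myl9* at 0.25, not called, and -1.22, whereas *Acta2* was at -0.64 in male cells and at -0.20, not called, in female cells. Null members also held fewer cells with *Nkx2-3*, a gene of the rule, and the part of this makeup in the differences was not tested. *Acta2* stood at 44.5, 32.9, 39.3 and 32.0 CPM in members without *Nkx2-3* (-0.13) and at 279, 304, 324 and 310 CPM in those with it (0.13), and neither was called. *Tagln* was at -0.31 and -0.23 in the same strata and was not called in either.

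Regulators were higher in 6 of 17 and lower in none, among them *Gata5* (1.34), *Gata4* (1.15), *Meis1* (0.48), *Osr1* (0.37) and *Gata6* (0.29). *Gata6* stood at 54.6 and 50.7 CPM in WT and 62.8 and 65.4 CPM in null members, while *Gata4* and *Gata5* stayed under 8 CPM. DESeq2 called 2 of the 6 and none of the *Gata* genes or *Osr1*, and the male minus female difference was called for *Meis1* (1.80) and *Osr1* (1.22). Of the hedgehog list *Hhip* (0.84) and *Gli1* (0.38) were higher and *Ptch1* at 0.15 was not called. DESeq2 called *Hhip* and not *Gli1*. BMP genes had 4 of 20 higher, with *Bmp5* (0.64), *Id3* (0.35), *Id2* (0.30) and *Grem1*, the last from under 1 CPM in WT, and DESeq2 called these 4. The male minus female difference was called for *Grem1* (4.56) and for *Id3* (-0.57), which was at 0.08, not called, in male and at 0.66 in female cells. Matrix genes had 3 of 18 higher and 1 lower, with *Lum* at 10.1 and 12.8 against 27.1 and 23.0 CPM and *Col3a1* at 0.14 not called. Of these 4 DESeq2 called *Lum* and not *Fbn1*, *Fbn2* or *Sparc*. A called male minus female difference was found for *Fbn2* (0.41) and also for *Col3a1* (1.09). Paraxial genes had 3 of 8 higher (*Meox1*, *Foxc2* and *Pax1*), intermediate mesoderm 2 of 4 (*Lhx1* and *Osr1*) and secreted visceral endoderm 2 of 5 (*Apoa1* and *Ttr*). None of these lists had a gene called lower. DESeq2 called *Pax1*, *Lhx1*, *Apoa1* and *Ttr*. The male minus female difference was called for *Meox1* (2.54), *Lhx1* (2.60) and *Osr1* (1.22). None of 10 basement membrane, 10 vascular signal, 6 coelomic, 9 erythroid or 15 proliferation genes was called. With the likely doublets left out, however, as an alternative to the same edgeR test, *Hba-x* (3.12), *Hba-a1* (2.98), *Hba-a2* (2.56) and *Hbb-bh1* were called higher in null members. Among proliferation genes *Pcna* (0.19) was then called higher too. With the replicate block, the calls in these lists included *Lama4* (0.44) and *Krt19* (0.41) higher and the globin gene *Hbb-y* (-1.65) lower. *Hba-a1* and *Hba-a2* are near-identical copies, so their values are uncertain. In female cells *Hba-x* stood at 560 CPM in null library 2 and at 7.43 to 12.8 CPM in the other libraries. Of 9 endothelial genes *Kdr* (0.26) and *Plvap* (-0.67) were called, *Kdr* not by DESeq2. *Kdr* was called in opposite directions in the sexes, at -1.15 in male and 1.62 in female cells, and *Plvap* was at -1.23 in male cells and at -0.29, not called, in female cells. Dissociation genes had 3 of 10 lower (*Fos* at -1.08, *Jun* at -0.54 and *Ier2* at -0.35). *Fos* was not called by DESeq2, and *Jun* was at 0.33, not called, in male cells and at -1.13 in female cells, a called difference. The Y-linked genes *Uty* (1.20), *Ddx3y* (0.63) and *Eif2s3y* (0.61) were higher, and the null members held more male cells.

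Among genes with a symbol of their own and a mean of at least 10 CPM, those higher by most included *Pkdcc* (chr17:83215292-83225070, plus strand), a secreted tyrosine kinase of skeletal and lung development, at 27.0 and 17.8 against 77.5 and 79.9 CPM. The retinoic acid enzyme *Aldh1a2* stood at 11.4 and 13.0 against 35.0 and 37.0 CPM, and the nuclear receptor *Nr2f1* at 24.4 and 23.5 against 63.0 and 72.4 CPM. *Lhx1* (1.43), *Epha7* (1.41), *Prrx2* (1.17), *Tdo2* (1.09) and *Fst* (1.06) followed. Among those lower were, after *Hoxc10*, *Stmn1* (chr4:134468320-134473843, plus strand), a microtubule regulator, at 1061 and 1141 against 325 and 374 CPM. *Igfbp5* stood at 47.6 and 48.0 against 17.2 and 18.4 CPM, *Hdac1* (chr4:129516104-129542713, minus strand) at 152 and 140 against 72.2 and 64.8 CPM, and *Pitx1*, a hindlimb factor, at 153 and 155 against 80.2 and 79.2 CPM. *Fam210b* (-1.07), *Fhl2* (-0.99), *Rspo1* (-0.93) and *Ldhb* (-0.92) were also lower. In members without *Nkx2-3*, *Pitx1* stood at 108 and 128 against 54.1 and 41.6 CPM and *Aldh1a2* at 16.4 and 12.7 against 43.6 and 35.4 CPM. With at least 4 UMIs of *Nkx2-3* the genotypes overlapped for *Pitx1*, at 211 and 162 against 168 and 200 CPM. *Aldh1a2* stood at 15.4 and 25.9 against 11.5 and 0 CPM with 2 or 3 UMIs. The genes of this paragraph were named only if, over all members, the libraries of the 2 genotypes did not overlap. That separation is thus a condition of the list and no result.

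Since the pools differ in sex, the same test was run in male and female cells and on the difference between them. In male cells 600 of 10811 genes were called lower in null (5.55%) and in female cells 454 of 10790 (4.21%). Of 11142 genes tested, the genotype difference was higher in male than in female cells for 752 (6.75%) and lower for 885 (7.94%), and 215 of 478 genotype calls that could be tested were among them. *Nr2f1* stood at 4.59 and 4.57 CPM in WT male cells against 110 and 126 CPM in null male cells, a log2 fold change of 4.67. In female cells it stood at 43.6 and 45.4 against 9.46 and 10.2 CPM, a log2 fold change of -2.15. *Igfbp5* likewise turned, from 9.91 and 6.25 against 17.0 and 27.0 CPM in male cells to 79.0 and 82.3 against 4.09 and 8.00 CPM in female cells. *Aldh1a2* was at 4.21 in male and -0.72 in female cells, whereas *Lum* was at 1.02 and 1.25, *Tdo2* at 1.12 and 0.82, *Stmn1* at -1.34 and -1.93 and *Hdac1* at -0.99 and -1.18. *Hoxc10* was lower in both, by 2.46 in male and 1.5 in female cells on the log2 scale. Without null library 1 there were 882 calls, 842 of them among the 1637 made with all libraries, and without null library 2 there were 769, of which 750 were among them. *Lhx1* (-0.05), *Epha7* (-0.20) and *Fst* (-1.37) also turned in female cells. Male and female cells came from different embryos, so sex and embryo cannot be told apart.

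**Figure D5:**
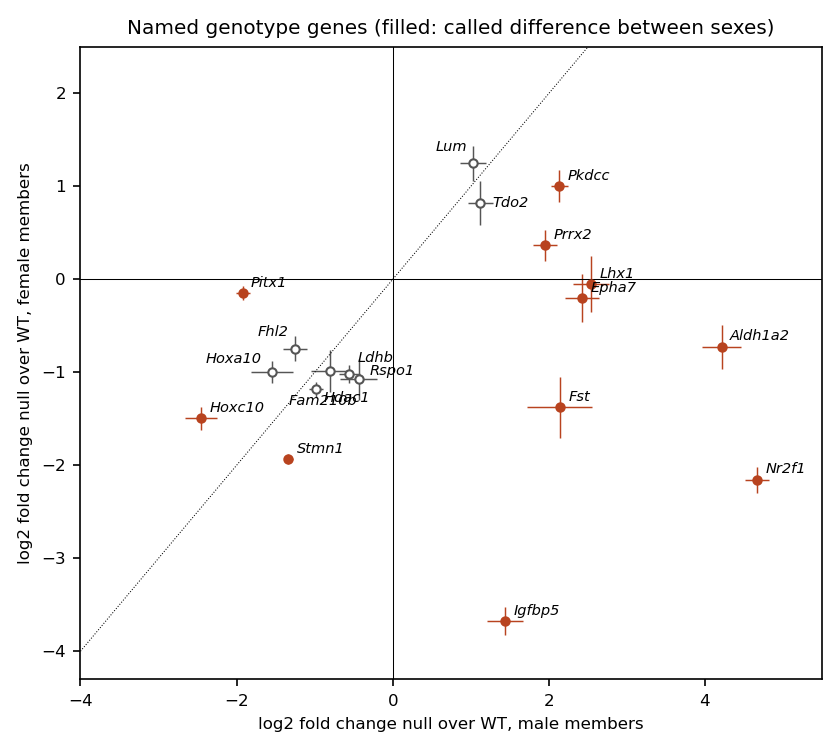
Log2 fold change of null over WT members in male cells (x axis) and in female cells (y axis) for the 19 named genes of the genotype comparison, with SE bars; filled points had a called difference between the sexes. *Stmn1*, *Hdac1*, *Hoxc10* and *Hoxa10* lie in the lower left and *Pkdcc*, *Lum* and *Tdo2* in the upper right, whereas *Nr2f1* lies at 4.67 and -2.15 and *Igfbp5* at 1.44 and -3.68.

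Of the 487 genotype calls, 85 were called in the same direction in both sexes, 89 both with and without *Nkx2-3*, and 52 in all 4 of these strata. Of the 19 named genes, 10 were called in the same direction in both sexes and 11 had a called sex difference. Without cells that held *Etv2* or *Tal1*, 457 of the 487 were called in the same direction. The 52 included *Hoxc10*, *Hoxa10*, *Hoxd11*, *Hoxc9*, *Stmn1*, *Hdac1*, *Fhl2* and *Ldhb* on the lower side, and *Pkdcc*, *Lum*, *Tdo2*, *Hhip* and *Sox9* (1.05) on the higher side. Many ribosomal protein genes, such as *Rps29* (0.34) and *Rpl38* (0.35), and the mitochondrial gene *mt-Nd3* (0.37) were on the higher side too.

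Some of these genes lie near *Grhl3*. Within 10 Mb of it on chromosome 4, 28 of 197 tested genes were called (14.2%), 10 higher and 18 lower, against 25 of 552 farther along the chromosome (4.53%) and 459 of 11817 among all other placed genes (3.88%). From *Grhl3*, *Stmn1* lies at -1.09 Mb, *Hdac1* at -6.03 Mb and *Rpl11* at 0.48 Mb. The null allele and the stretch of chromosome around it cannot be told apart as the origin of these differences. The predicted genes *Gm10036* (6.06), *Gm10093* (5.61) and *Gm10282* (1.82) were higher in null members. Of the 50-base stretches of *Gm10093*, *Gm10282* and *Gm10036*, 80.4%, 74.0% and 66.4% are shared with *Hdac1*, *Hmgn2* and *Rpl11*. Reads of such pairs may have been divided by the counting, so their values are uncertain.

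Last, the genotype difference in members was tested against that in *Foxf1* mesoderm. Of 13763 genes, the difference was higher in members for 223 (1.62%) and lower for 209 (1.52%), and 148 of the 487 genotype calls were among them. In *Foxf1* mesoderm itself 292 of the 487 were called in the same direction and 18 in the opposite direction. Of all 14054 genes tested there, 1417 were called lower (10.1%), against 1.85% called lower in members. The share called higher there is not given, and the counts of 292 and 18 were not tested against this background. *Igfbp5* was lower by 1.42 in null members but stood at 7.57 and 6.32 against 12.6 and 15.2 CPM in *Foxf1* mesoderm, a difference of -2.42 between the log2 fold changes. Within the members *Igfbp5* was higher in null in male cells and in cells without *Nkx2-3*, with values given below. *Aldh1a2*, *Lhx1* and *Fst* were higher in null members and near 0 in *Foxf1* mesoderm, at -0.08, 0.01 and -0.13. *Hoxc10* was lower in both classes, by 1.93 in members and by 2.95 in *Foxf1* mesoderm on the log2 scale. *Col3a1* was at 0.14 in members and 1.01 in *Foxf1* mesoderm, and with *Col1a1*, *Col1a2* and *Sparc* it made 4 of 18 matrix genes that were lower in this comparison. In members without *Nkx2-3*, both null libraries stood above both WT libraries for *Col3a1*. The part of the members' makeup in this difference was not tested. Imprinted genes had 8 of 11 lower, including *H19*, *Dlk1*, *Meg3*, *Peg3* and *Cdkn1c*. *Hox* genes went both ways, with 6 of 35 higher (among them *Hoxa4*, *Hoxa5*, *Hoxb1*, *Hoxb2* and *Hoxc10*) and 6 lower (*Hoxa9*, *Hoxb9*, *Hoxc6*, *Hoxc8*, *Hoxc9* and *Hoxd9*). No hedgehog gene of 11 was called in this test. DESeq2 gave an adjusted p for 955 genes and called 87, among them *H19*, *Meg3* and *Hoxb9*. It did not call *Peg3* or *Hoxc8*, and it gave no adjusted p for the other genes named here as called. Without WT library 1 there were 181 calls, 162 of them among the 432 made with all libraries, and without WT library 2 there were 156, of which 141 were among them.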

How the data were processed

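ScRNA-seq counts of 4 libraries were used. The authors aligned reads to mm10 with Cell Ranger 3.0.0 and deposited whole-number UMI counts of 5698 to 6186 cell barcodes per library, to which the limits on genes, UMIs and mitochondrial share had not been applied. Those deposited counts were used unchanged. Cells were kept by the study's limits and classes were set by UMI thresholds, so class names are rebuilt and need not match those of the study. Scrublet in scanpy 1.11.5 marked at most 0.0627% of a library by its automatic threshold, so doublets were kept and the 5% of cells with the highest scores (53 members) were removed in an alternative.

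Class sums of UMIs per library were tested with edgeR 4.0.16 in R 4.3.3 (TMM, filterByExpr, quasi-likelihood, Benjamini-Hochberg), with DESeq2 1.42.0 as an alternative. On simulated data with 200 genes changed by a log2 of 2, between 183 and 200 were recovered per comparison, with 5 to 12 wrong calls. The changed genes were drawn from the better counted ones, the spread was the same for every gene, and calls used the adjusted p alone. Only 96 of the 487 genotype calls reached a log2 change of 1, so recovery of changes as small as most of these was not measured. The difference between the sexes was not simulated. Replicate libraries differed by more than counting noise (a chi-square of 2.145 and 2.244 for each degree of freedom in members) and were counted separately. A cell was male from 2 UMIs of 4 Y-linked genes and female from 3 UMIs of *Xist*, with little of the other. Python 3.11.15, numpy 2.4.6, pandas 2.3.3, scipy 1.17.1 and matplotlib 3.10.9 were used.

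The members and the gene lists were chosen with earlier results of these data known. Named genes were those of the lists and, for each comparison, the 10 largest changes in each direction among called genes with a mean of at least 10 CPM and the same direction in every library. For the genotype comparison, the same direction meant that the WT and null libraries did not overlap. Genes without a symbol of their own and ribosomal protein genes were counted but not named by this rule. *Sox9*, *Rpl11*, *Rps29*, *Rpl38*, *mt-Nd3*, *Hmgn2* and the predicted genes *Gm10093*, *Gm10282* and *Gm10036* were named after their values were seen. Reads were not analysed here, and some genes counted in the lists are not reported here.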

Additional observations from a re-analysis of the deposited data

Results flagged for a closer look

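For 11 of the 19 genes named for their genotype changes, the test of the difference between male and female members passed the threshold. The male minus female difference of the null over WT log2 fold changes was 6.83 for *Nr2f1*, 5.14 for *Igfbp5*, 4.93 for *Aldh1a2*, 3.46 for *Fst*, 2.63 for *Epha7*, 2.60 for *Lhx1*, 1.60 for *Prrx2*, 1.14 for *Pkdcc* and 0.60 for *Stmn1*. It was -1.78 for *Pitx1* and -0.97 for *Hoxc10*. *Stmn1* was lower in null in both sexes, and less so in male cells. At least 1 sex of the null pool came from a single embryo, so sex and embryo cannot be told apart.

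The same kind of test set the members against *Foxf1* mesoderm. The members minus *Foxf1* mesoderm difference of the log2 fold changes was 1.64 for *Aldh1a2*, 1.42 for *Lhx1*, 1.19 for *Fst*, 1.01 for *Hoxc10*, 0.94 for *Epha7*, 0.90 for *Prrx2*, 0.84 for *Pkdcc* and 0.76 for *Nr2f1*. It was -2.42 for *Igfbp5*, -0.95 for *Fhl2* and -0.27 for *Pitx1*. *Hoxc10* was lower in null in both classes, and less so in members. The part of sex in these differences between classes was not tested.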

How the results depend on the processing

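Each genotype rests on 1 pool, and *Nkx2-3*-only sums of the null libraries on 12 cells in all. Genotype calls in members, 487 by the reported test, were 201 with DESeq2, 260 with no filter on low counts, 96 where a log2 change of 1 or more was asked for, 1166 in male cells, 981 in female cells and, by an alternative chosen after seeing the data, 788 without cells that held *Etv2* or *Tal1*. Leaving out 1 library gave 370 to 655, the lone library of a genotype being assumed to vary like the other group. The libraries share replicate numbers but the numbers did not pair them (r = -0.0283 between deviations), and the fit with the replicate block called 743. Against *Foxf1* mesoderm 1255 calls became 5701 with no limit on the fold and 1158 to 1196 without 1 library, against *Tbx4* cells 963 became 786 to 979, and against *Prrx1* cells 1104 became 941 to 1053. The 416 calls of *Nkx2-3*-only against *Hlx*-only members became 274 with DESeq2, 251 at 20000 to 60000 UMIs per cell and 235 to 418 without 1 library. The 432 differences between classes became 87 with DESeq2, which gave an adjusted p for 955 of the genes, 725 with no filter and 156 to 482 without 1 library. The 1637 differences between sexes, a test added after seeing the data, became 306 with DESeq2 and 769 to 1150 without 1 library. The log2 ratio of the members' share, 0.18, became -0.55 after thinning to 7500 UMIs, -0.20 in male cells, 0.43 in female cells, 0.39 at 20000 to 60000 UMIs, 0.07 where at least 3 UMIs of *Nkx2-3* and *Hlx* were asked for and 0.10 to 0.25 without 1 library.

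Single genes turned as follows. In female cells *Aldh1a2* stood at -0.72, *Nr2f1* at -2.15, *Lhx1* at -0.05, *Epha7* at -0.20 and *Fst* at -1.37, and in male cells *Igfbp5* at 1.44. In members with *Nkx2-3*, *Nr2f1* stood at -0.27, in members without it *Igfbp5* stood at 1.51, and at 20000 to 60000 UMIs *Fst* stood at -0.64. Without cells that held *Etv2* or *Tal1*, *Hhex* against *Foxf1* mesoderm stood at -0.35 and *Lmo2* in the *Nkx2-3* comparison at 0.18. Of the genes named against *Foxf1* mesoderm, DESeq2 did not call *Wnt2b*, *Igf1*, *Lefty1*, *Tbx5* and *Trh*, and against *Tbx4* cells *Zfpm2*. The causes were not tested.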

Other observations

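Sterol synthesis genes were lower in null members. Of 25 genes of cholesterol synthesis and uptake, a list written after some of their values were seen, 18 were called lower and none higher (edgeR quasi-likelihood test). The median log2 fold change was -0.55 against -0.002 for all genes, of which 1.85% were called lower. DESeq2 called 12 lower, against 0.749% of all genes. *Hmgcs1*, an early enzyme of the pathway, stood at 98.6 and 99.8 CPM in WT and 58.9 and 57.1 CPM in null members. *Msmo1* (-0.88) and *Cyp51* (-0.82), enzymes of the later steps, were also lower. Lower calls numbered 9 in male cells (median -0.41; 5.55% of all genes tested there were lower) and 18 in female cells (-0.72; 4.21%). They numbered 11 in members without *Nkx2-3* (-0.49; 1.46%), 15 in members with it (-0.60; 1.93%) and 19 in *Foxf1* mesoderm (-0.36; 10.1%). The list was chosen on these samples and is no independent evidence of its direction.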
